A study of Solanum lycopersicum with 27 samples.

Results

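The fatty acid desaturase genes of the FAD2, FAD3 and FAD7 types were followed through the first 3 hours of chilling in tomato. The set is defined by 7 Solyc identifiers: FAD7 (Solyc06g051400), 2 FAD3-type genes (Solyc06g007130 and Solyc06g007140) and 4 FAD2-type genes (Solyc01g006430, Solyc12g044950, Solyc12g049030 and Solyc04g040130). They are 7 of the 22179 features listed in the shoot table, the root table or both. The root table listed all 7, and the shoot table listed 6, without a row for Solyc12g049030. All of the listed members passed the filter on low values, which asked for a normalized count of 10 or more in 3 or more libraries of that organ.

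Shoots and roots of the tomato cultivar M82, the genotype of every group, were used for RNA-seq. Seedlings were grown in hydroponics to 18 days under 16 h of light and 8 h of dark at 24°C by day and 20°C by night. At ZT2.5, that is 2.5 h after lights came on, seedlings were moved to fresh containers and either stayed in 24°C or went to 4°C, both in the light. Shoots were taken before treatment (T0, 6 libraries) and after 30 min and 3 h in each temperature (3 libraries in each group), and roots at T0 and after 3 h in each temperature (3 libraries in each group). Each library came from a pool of 4 seedlings, so differences between single plants were not measured, and whole shoots and roots mix cell types, so fewer cells of a type and less RNA per cell cannot be told apart. The study states that 3 of the T0 shoot libraries were in the batch of the 3 h shoots (batch 1) and 3 in that of the 30 min shoots (batch 2). It does not number them there, and replicates 1 to 3 were taken as batch 1 and replicates 4 to 6 as batch 2 because the run type and bases per read in its sequencing summary match the 3 h shoots for the former and the 30 min shoots for the latter. The batch of the root libraries is not given in the sources used here.

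Fatty acid desaturases put double bonds into the acyl chains of membrane lipids. FAD2 is the omega-6 desaturase of the endoplasmic reticulum, which turns oleic into linoleic acid, and FAD3 is the omega-3 desaturase of the same membrane, which turns linoleic into linolenic acid. FAD7 is the omega-3 desaturase of the plastid, and its product, linolenic acid, makes up much of the thylakoid lipids and is the starting compound of jasmonate. These roles are known mainly from Arabidopsis, and more double bonds keep membranes fluid in the cold.

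The values are normalized counts, which the authors scaled so that all libraries of an organ sum to nearly the same total (20328938 to 20332140 in shoots and 37775630 to 37777083 in roots). They no longer carry the sequencing depth, so no counting error can be given, and shoots and roots were scaled apart, so levels were not compared between them. In shoots the plastid genome's transcripts took 6.73 to 6.77% of the normalized counts after 3 h in 4°C and 0.25 to 0.322% in 24°C, and 4.12 to 6.29% against 0.222 to 0.643% after 30 min. They took 0.394 to 0.718% at T0 in batch 1 and 2.05 to 2.32% in batch 2, and at most 0.0309% in any root library. Because these shares move with temperature, shoot differences are also given after rescaling the libraries over nuclear genes. The rescaling made the median ratio of nuclear genes detected in every library equal across libraries. It thus assumes that the median nuclear gene did not change, and it is not a correction for the plastid share alone. The median log2 difference of all genes between 4°C and 24°C at 3 h moved from -0.28 to -0.02 in shoots. In roots, where plastid shares were at most 0.0309%, it moved from -0.11 to 0.00.

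Some T0 libraries stood apart from the others. Among 16997 root features with a mean of at least 100, 731 and 824 differed at least 2-fold between T0 replicate 3 and replicates 1 and 2, against 40 between replicates 1 and 2. In shoots, 313 and 318 of 14325 features did so between T0 replicate 3 and replicates 2 and 1, and 358 and 359 between T0 replicate 6 and replicates 4 and 5, against 50 and 90 within the remaining pair of each batch. AOS (Solyc04g079730), the allene oxide synthase of jasmonate synthesis, was at 8145, 9352 and 1565 in root T0 replicates 1 to 3. In shoots it was at 159 and 111 in T0 replicates 3 and 6 and between 1108 and 2066 in the other 4. Chilled 30 min shoots were uneven too, with 441 features at least 2-fold apart between replicates 2 and 3, 128 between 1 and 2 and 184 between 1 and 3. AOS was at 1343, 4645 and 496 in these chilled replicates 1 to 3. For members called against T0, log2 differences are given with and without the T0 libraries that stood apart.

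FAD7 was higher in chilled than in ambient shoots after 3 h. Its normalized counts at T0 were 10892, 10985 and 10330 in batch 1 and 11634, 11802 and 11425 in batch 2. After 3 h they were 3913, 3634 and 3534 in 24°C and 8460, 8509 and 7966 in 4°C. All 3 chilled libraries lay above all 3 ambient ones and below all 6 T0 libraries. The mean was 8311 ± 301 (SD, n = 3) in 4°C and 3694 ± 197 (SD, n = 3) in 24°C, a 2.25-fold difference (log2 difference 1.17, standard error 0.05, limma adjusted p = 2.42e-12, higher in 3 of 3 libraries). Rescaled over nuclear genes, the log2 difference was 1.43 (adjusted p = 1.4e-12).

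The difference came mainly from a fall in ambient shoots. Relative to T0, FAD7 fell by 1.60 on the log2 scale at 24°C (adjusted p = 6.02e-15), to 0.331 of its T0 mean. At 4°C it fell by 0.43 (adjusted p = 6.16e-07), to 0.744 of its T0 mean. Against T0 of the same batch alone these values were -1.54 and -0.37, with adjusted p of 1.17e-13 and 3.51e-05. Without T0 replicates 3 and 6 they were -1.62 (adjusted p = 3.38e-14) and -0.45 (adjusted p = 2.33e-06). After rescaling over nuclear genes they were -1.76 (adjusted p = 2.16e-14) and -0.33 (adjusted p = 7.32e-05). The comparisons with T0 share the T0 libraries, and time of day, handling and time in the fresh container moved together between T0 and 3 h and cannot be told apart. By the cutoffs of the study, a gene called between temperatures is cold-static when the ambient mean moved from T0 by 2-fold or more at 3 h (1.5-fold at 30 min) and the chilled mean did not, and FAD7 was cold-static in shoots.

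**Figure D1:**
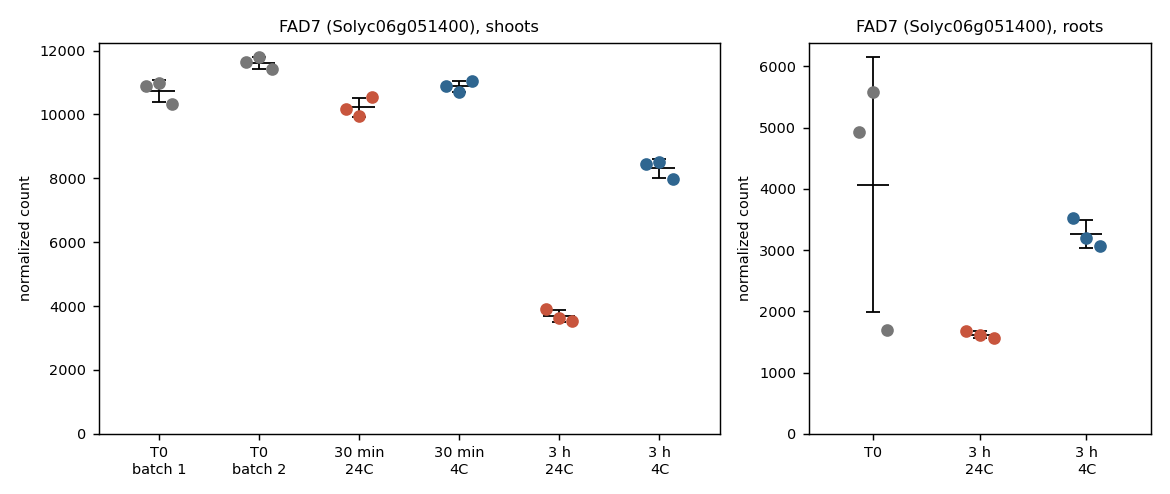
Normalized count of FAD7 (y axis) in each library of shoots (left) and roots (right) by group (x axis). Points are libraries (grey T0, red 24°C, blue 4°C), horizontal bars are group means and whiskers are SD (n = 3); the 3 h shoots sit between 7966 and 8509 in 4°C and between 3534 and 3913 in 24°C, and root T0 replicate 3 sits at 1689, apart from the other T0 roots.

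After 30 min FAD7 was close to its T0 level at both temperatures. The counts were 10169, 9947 and 10538 in 24°C and 10890, 10699 and 11047 in 4°C, and every chilled library was above every ambient one. The log2 difference was 0.09 (95% interval -0.02 to 0.20, limma adjusted p = 0.301) and did not pass the test. The temperature difference at 3 h exceeded that at 30 min by 1.08 on the log2 scale (standard error 0.07, adjusted p = 1.04e-08). The times were sequenced in different batches, so this contrast cannot be told apart from a batch that acted on the temperature difference, although each difference was taken within its own batch.

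In roots FAD7 had the same direction, but 1 library decided whether it passed the test. Its counts were 1674, 1620 and 1564 after 3 h in 24°C and 3519, 3197 and 3064 in 4°C, with no overlap. At T0 they were 4920, 5581 and 1689, so replicate 3 lay near the ambient 3 h level and the other 2 lay above every treated root. The log2 difference between 4°C and 24°C was 1.01 (standard error 0.36, 95% interval 0.19 to 1.82, adjusted p = 0.0361), above the threshold of 0.01, because all 9 root libraries shared 1 estimate of the spread and T0 replicate 3 widened it. Without that library the same log2 difference of 1.01 had a standard error of 0.07 and an adjusted p of 9.07e-07.

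Against T0, root FAD7 differed by -1.15 at 24°C (adjusted p = 0.0223) and by -0.14 at 4°C (adjusted p = 0.827), and neither passed. Without T0 replicate 3 both did, at -1.69 (adjusted p = 7.48e-08) and -0.69 (adjusted p = 0.000332). The 4°C mean was 0.802 of the T0 mean and the 24°C mean 0.399, or 0.621 and 0.308 without that library. Under either T0 mean only the 24°C value lay beyond the 2-fold cutoff.

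The FAD2-type gene Solyc12g044950 differed from FAD7 in direction and was lower in the cold in both organs. In shoots its normalized counts after 3 h were 702, 800 and 854 in 24°C and 246, 361 and 325 in 4°C, and the groups did not overlap. Its mean was 311 ± 58.7 (SD, n = 3) in 4°C and 785 ± 77.2 (SD, n = 3) in 24°C, which is -1.35 on the log2 scale (standard error 0.17, limma adjusted p = 2.58e-06). After rescaling the difference was -1.09 (adjusted p = 1.67e-05).

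Shoot T0 lay between these groups. The T0 counts of Solyc12g044950 were 463, 438 and 514 in batch 1 and 455, 365 and 635 in batch 2. The gene rose by 0.73 on the log2 scale at 24°C after 3 h (adjusted p = 0.000352) and fell by 0.62 at 4°C (adjusted p = 0.00238). The fall did not pass against T0 of the same batch alone (-0.62, adjusted p = 0.011), without 3 h 4°C replicate 1, the lowest library, or with only the libraries compared in the fit, with adjusted p between 0.000398 and 0.0327 over all alternatives, whereas the rise passed under all 22 of its alternatives. Without T0 replicates 3 and 6 the values were 0.87 (adjusted p = 1.57e-05) and -0.48 (adjusted p = 0.00648). With a 24°C mean of 1.64 and a 4°C mean of 0.65 relative to T0, the gene reached neither 2-fold cutoff and its class was indeterminate. At 1.5-fold it would be cold-repressed. These classes used means that were not rescaled. After rescaling over nuclear genes, both limma values against T0 were smaller, 0.56 at 24°C (adjusted p = 0.00189) and -0.52 at 4°C (adjusted p = 0.00487), and no class was assigned from them.

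After 30 min the counts of this gene were 464, 500 and 477 in 24°C and 411, 347 and 443 in 4°C. Although the groups did not overlap, the log2 difference of -0.27 (95% interval -0.62 to 0.08, adjusted p = 0.341) did not pass the test. The difference grew by -1.08 from 30 min to 3 h (standard error 0.23, adjusted p = 0.00303), with batch and time again moving together. It passed by a small margin and was lost without 3 h 24°C replicate 3 (adjusted p = 0.0105) and without 3 h 4°C replicate 1 (adjusted p = 0.0106).

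In roots Solyc12g044950 more than doubled in ambient controls and stayed near T0 in the cold. Its counts were 5549, 5797 and 6390 at T0, 11252, 13079 and 13122 after 3 h in 24°C and 5213, 4910 and 5239 in 4°C. Every ambient library lay above every T0 and chilled library. The 4°C mean of 5120 ± 183 (SD, n = 3) against 12484 ± 1068 (SD, n = 3) differed by -1.28 on the log2 scale (limma, standard error 0.08, adjusted p = 1.37e-06). The rise from T0 at 24°C was 1.08 (adjusted p = 4.85e-06), and the 4°C value of -0.21 against T0 did not pass (95% interval -0.38 to -0.03, adjusted p = 0.11). Without T0 replicate 3 these were 1.13 (adjusted p = 9.22e-07) and -0.15 (adjusted p = 0.196). The 24°C mean was 2.11 times the T0 mean and the 4°C mean 0.866 times, which made the gene cold-static in roots, with the ambient change opposite in sign to that of FAD7.

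**Figure D2:**
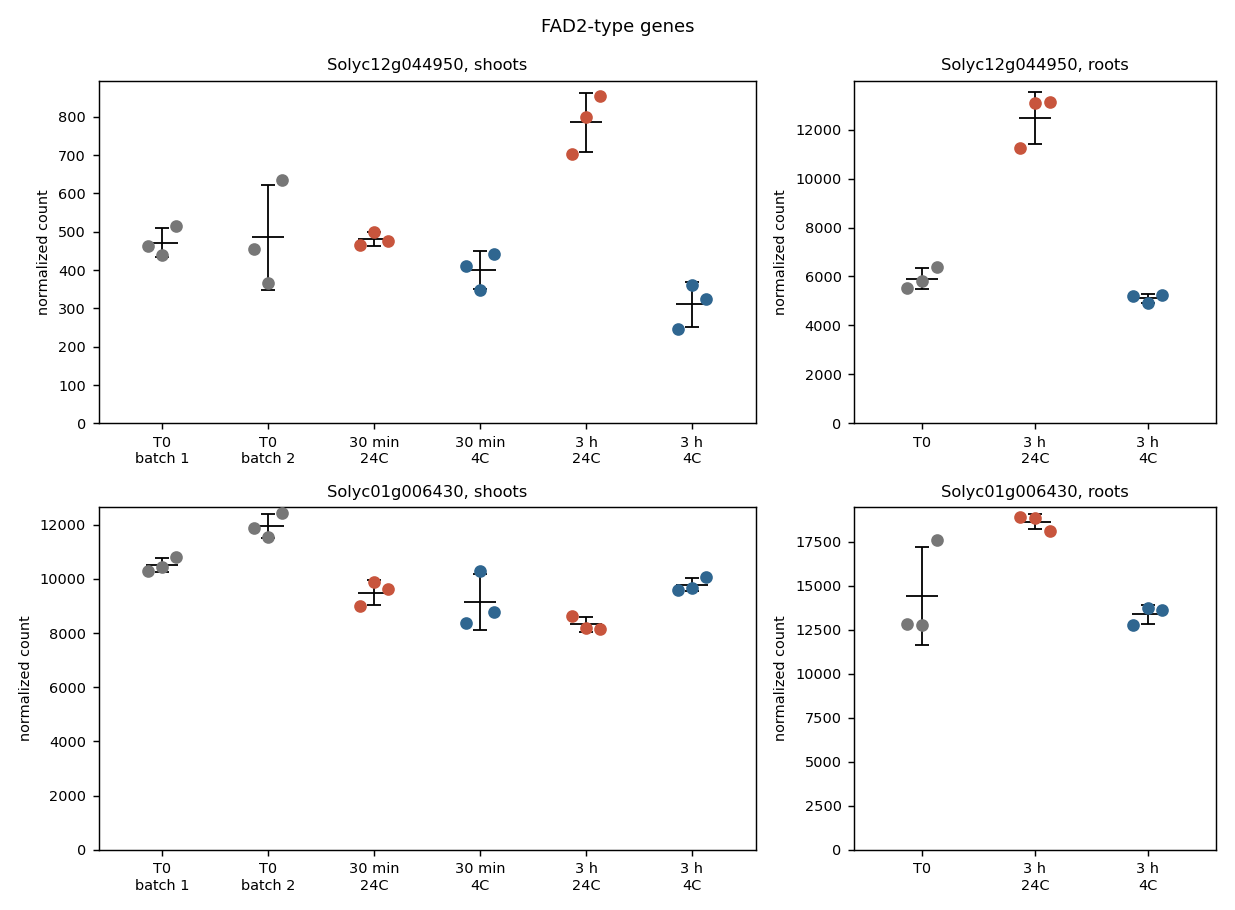
Normalized counts (y axis) of the FAD2-type genes Solyc12g044950 (top) and Solyc01g006430 (bottom) in each library of shoots (left) and roots (right) by group (x axis). Points are libraries (grey T0, red 24°C, blue 4°C), bars are group means and whiskers SD (n = 3); Solyc12g044950 is lower in 4°C than in 24°C after 3 h in both organs, while Solyc01g006430 is higher in shoots and lower in roots.

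Solyc04g040130, also FAD2-type, followed the same course in roots with a larger difference. It stood at 353, 281 and 573 at T0, at 1155, 1613 and 1372 after 3 h in 24°C and at 272, 251 and 258 in 4°C. The ambient libraries were above all others, and the chilled ones were below all 3 T0 libraries. Against 24°C the 4°C level was lower, by -2.39 on the log2 scale (standard error 0.23, adjusted p = 2.1e-05), and at 24°C the gene rose from T0 by 1.83 (adjusted p = 0.000134). The 4°C value against T0 was -0.56 (adjusted p = 0.132) and did not pass. Without T0 replicate 3 the values against T0 were 2.12 (adjusted p = 1.07e-06) and -0.27 (adjusted p = 0.208). Relative to T0 the means were 3.43 at 24°C and 0.647 at 4°C, a cold-static pattern that would be cold-repressed at a 1.5-fold cutoff and, with T0 replicate 3 left out, static at either cutoff (0.822 at 4°C and 4.36 at 24°C). In shoots the gene was barely detected, from 0 to 26.0 normalized counts over the 18 libraries, and no temperature difference passed. After 30 min it was at 6.79, 9.29 and 0 in 24°C and at 12.9, 26.0 and 13.6 in 4°C, without overlap. The log2 difference was 2.03 (95% interval 0.50 to 3.56, adjusted p = 0.0824). Among shoot libraries, only these chilled ones and T0 replicates 2 and 3 (11.3 and 13.2) reached the minimum value of the filter. Without the chilled ones the gene would not have been tested in shoots, so no conclusion is drawn from their separation. After 3 h the log2 difference was -0.40 (95% interval -1.94 to 1.13, adjusted p = 0.664).

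The FAD2-type gene Solyc01g006430 showed small differences of opposite sign in the 2 organs. After 3 h in shoots its counts were 8638, 8172 and 8156 in 24°C and 9604, 9682 and 10064 in 4°C. In roots they were 18923, 18865 and 18136 in 24°C and 12745, 13726 and 13646 in 4°C. In each organ the groups did not overlap. The log2 difference was 0.23 in shoots (standard error 0.07, adjusted p = 0.00655; 0.50 and 8.38e-05 after rescaling) and -0.48 in roots (standard error 0.11, adjusted p = 0.00459). Both calls were narrow: the shoot call was lost without 5 of the 6 libraries taken singly (adjusted p up to 0.0281) and with all T0 libraries as 1 group (adjusted p = 0.0408), and the root call without any of the 6 compared (adjusted p up to 0.0204). Leaving out root T0 replicate 3 gave the same root difference an adjusted p of 1.9e-05. Since the organs were normalized apart, the difference between them was not tested.

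Against T0, Solyc01g006430 was lower in ambient shoots. Its shoot T0 counts were 10288, 10441 and 10806 in batch 1 and 11883, 11554 and 12422 in batch 2, above all 3 h libraries and, in batch 2, above all 30 min libraries. At 3 h it fell by 0.43 on the log2 scale at 24°C (adjusted p = 6.07e-06, with -0.34 against T0 of batch 1 alone and -0.41 without T0 replicates 3 and 6), and the value at 4°C was -0.20 (adjusted p = 0.012), which did not pass. At 30 min it fell by 0.24 at 24°C (adjusted p = 0.00457) and by 0.30 at 4°C (adjusted p = 0.00113), calls that were lost after rescaling over nuclear genes (adjusted p = 0.0579 and 0.08). Without T0 replicates 3 and 6 the 4°C value was -0.27 (adjusted p = 0.00631). In roots T0 was 12842, 12782 and 17620, with replicate 3 again apart, and the value of 0.39 at 24°C against T0 (adjusted p = 0.0152) passed only without that library among the single libraries left out (0.54, adjusted p = 2.35e-05).

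The remaining FAD2-type gene, Solyc12g049030, had a row only in the root table and was low there. Its normalized counts ranged from 10.3 to 54.2 over the 9 root libraries, with a mean of 15.7 ± 6.99 (SD, n = 3) when chilled and 29.5 ± 7.28 (SD, n = 3) when ambient. The groups overlapped, and the log2 difference of -0.92 did not pass (95% interval -1.73 to -0.11, adjusted p = 0.0514).

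Summed over the 4 FAD2-type genes, root counts were 32535 ± 1120 after 3 h in 24°C, 18769 ± 465 in 4°C and 20767 ± 3332 at T0 (SD, n = 3 in each). Solyc12g044950 made up 35.9 to 40.2% of this sum in ambient libraries, 26.0 to 28.6% in chilled ones and 26.0 to 30.7% at T0. In shoots the sum of the 3 listed genes was 9112 ± 203 (SD, n = 3) in ambient and 10099 ± 272 (SD, n = 3) in chilled libraries, and the share of Solyc12g044950 was 7.51 to 9.47% against 2.5 to 3.59%. The ambient and chilled ranges of the share did not overlap in either organ. These sums and shares are not corrected for transcript length, so they describe reads and not transcripts, and they were not tested.

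Of the FAD3-type genes, Solyc06g007130 had counts of 602, 765 and 549 in 24°C and 564, 513 and 473 in 4°C after 3 h in shoots, with overlap, and the log2 difference of -0.30 did not pass (adjusted p = 0.0752; -0.03 after rescaling). At 4°C it fell from T0 by 0.46 (adjusted p = 0.00521). That call was lost against T0 of the same batch alone (-0.29, adjusted p = 0.135) and without T0 replicate 2, 3 or 6 or 3 h 4°C replicate 2 or 3, with adjusted p up to 0.154 over its 22 alternatives. In roots the counts were 1241, 885 and 962 in 24°C and 1396, 1500 and 1288 in 4°C, all chilled libraries above all ambient ones, and the log2 difference of 0.45 did not pass (95% interval 0.12 to 0.78, adjusted p = 0.0255). It passed after rescaling (0.56, adjusted p = 0.00621), without root T0 replicate 3 (adjusted p = 0.00693) and without 3 h 24°C replicate 1.

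Solyc06g007140, the other FAD3-type gene, was at 82.6, 74.0 and 69.3 in 24°C and 44.6, 45.0 and 45.8 in 4°C after 3 h in shoots. The T0 libraries ranged from 62.0 to 85.7, above every chilled library. The log2 difference between temperatures was -0.72 (standard error 0.21, adjusted p = 0.00778), a call lost after rescaling (-0.46, adjusted p = 0.0831) and without any 1 of the 6 libraries compared (adjusted p up to 0.0325). In roots the counts were 48.4, 39.2 and 35.8 in 24°C and 31.4, 16.4 and 24.1 in 4°C, and the difference of -0.79 did not pass (95% interval -1.54 to -0.04, adjusted p = 0.0659).

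**Figure D3:**
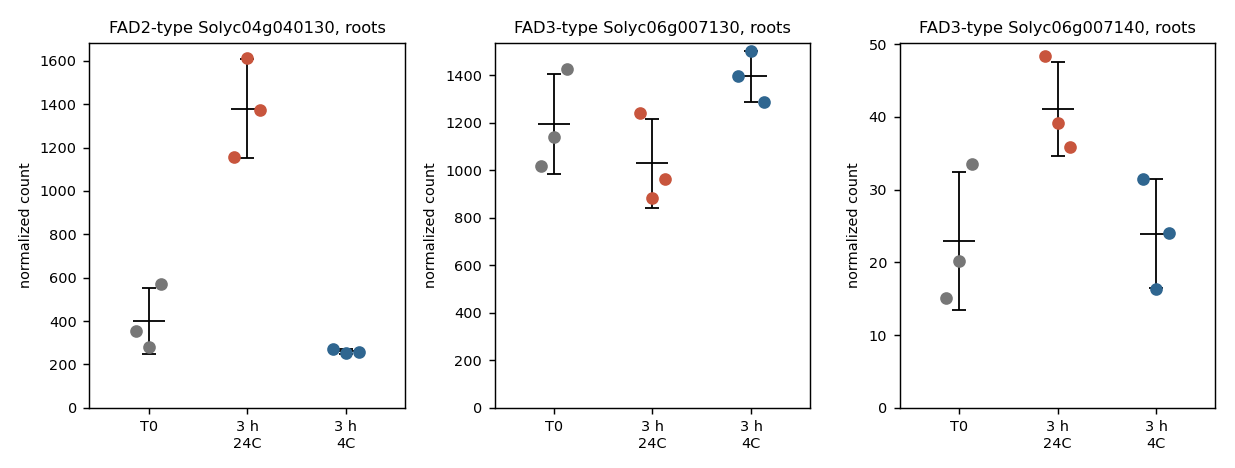
Normalized counts (y axis) of the FAD2-type gene Solyc04g040130 and of both FAD3-type genes in each root library by group (x axis). Points are libraries (grey T0, red 24°C, blue 4°C), bars are group means and whiskers SD (n = 3); Solyc04g040130 lies between 1155 and 1613 in 24°C and between 251 and 272 in 4°C.

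The members are related genes, and the identifiers of the FAD3-type pair follow each other. How alike their sequences are was not measured here, so reads shared between near-identical copies cannot be told apart from reads of a single member. The low members Solyc06g007140 and Solyc12g049030 are uncertain in that respect.

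In shoots at 30 min, limma called 0 of 6 members between 4°C and 24°C (1 at an unadjusted p under 0.05), where it called 6.07% of all genes tested, 2.85% higher and 3.22% lower in 4°C. At 3 h it called 4 of 6 members, where it called 39.5% of all genes. FAD7 and Solyc01g006430 were higher and Solyc12g044950 and Solyc06g007140 lower, beside 9.63% of all genes higher and 29.9% lower. The calls of FAD7 and Solyc12g044950 held under all 18 alternatives run. The median log2 difference of the 6 members was -0.35, beside -0.28 for all genes.

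In roots 3 of 7 members were called, all FAD2-type and all lower in 4°C, where 46.0% of all genes were called, 18.0% higher and 28.0% lower. Without T0 replicate 3, FAD7 and Solyc06g007130 also passed, both higher in 4°C. The median log2 difference of the 7 members was -0.79, beside -0.11 for all genes. Beside shares of all genes as large as these, the counts over 6 or 7 members are no result about the list, and only single members are described as changed.

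Against T0, 1 of 6 members was called in shoots after 30 min in 24°C (16.1% of all genes) and 1 after 30 min in 4°C (11.5%), Solyc01g006430 in both. After 3 h 3 of 6 were called in 24°C (40.2% of all genes) and 3 in 4°C (24.4%). Leaving out shoot T0 replicates 3 and 6 lost 2 of these 8 shoot calls, Solyc01g006430 at 30 min in 24°C (-0.22, adjusted p = 0.0184) and Solyc06g007130 at 3 h in 4°C (-0.39, adjusted p = 0.0204). In roots 2 of 7 were called in 24°C (40.1% of all genes) and 0 of 7 in 4°C by limma (3 at an unadjusted p under 0.05), where 4.79% of all genes were called. The change of the temperature difference between 30 min and 3 h was called for 2 of 6 members, FAD7 and Solyc12g044950 (11.7% of all genes). Between the T0 batches 0 of 6 members were called by limma (3 at an unadjusted p under 0.05), beside 23.5% of all genes. After rescaling, 3 members passed there, FAD7 at 0.24, Solyc06g007130 at 0.45 and Solyc01g006430 at 0.31 on the log2 scale, all higher in batch 2. The share of all genes called in the rescaled fit is not given here, so this count is no result about the list.

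**Figure D4:**
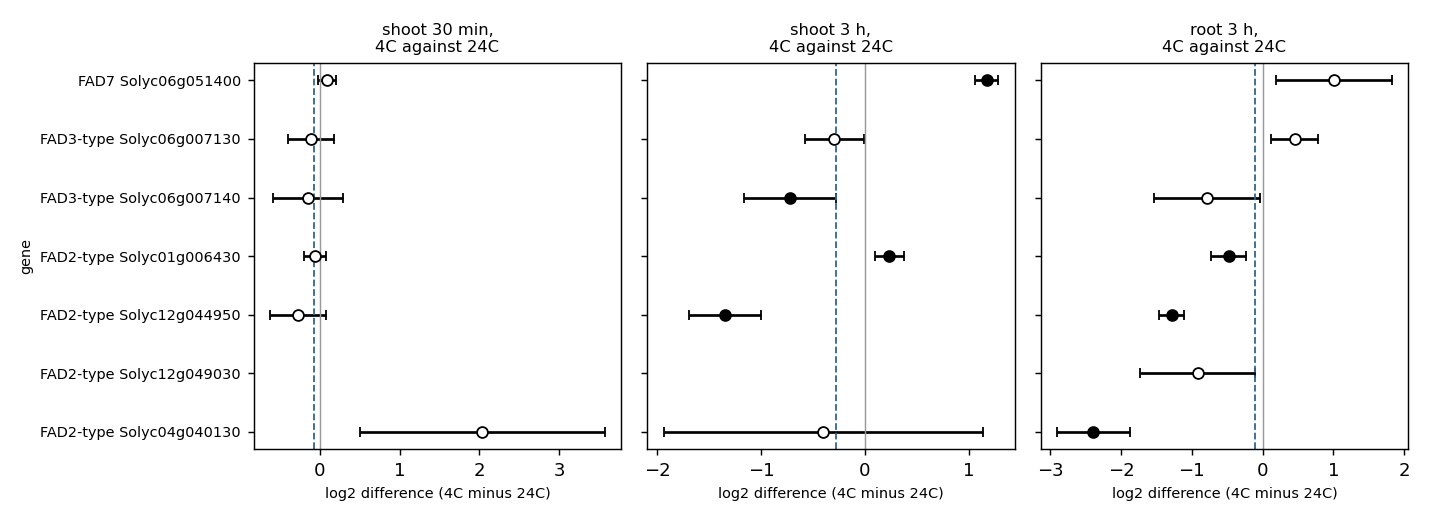
Log2 difference of normalized counts, 4°C minus 24°C (x axis), for each desaturase gene (y axis) in shoots after 30 min, shoots after 3 h and roots after 3 h. Circles are limma estimates with 95% intervals, filled where the adjusted p was under 0.01, the grey line is 0 and the dashed line the median of all genes (-0.07, -0.28 and -0.11); the x scales differ between panels, and FAD7 and Solyc12g044950 lie on opposite sides of 0 at 3 h.

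**Figure D5:**
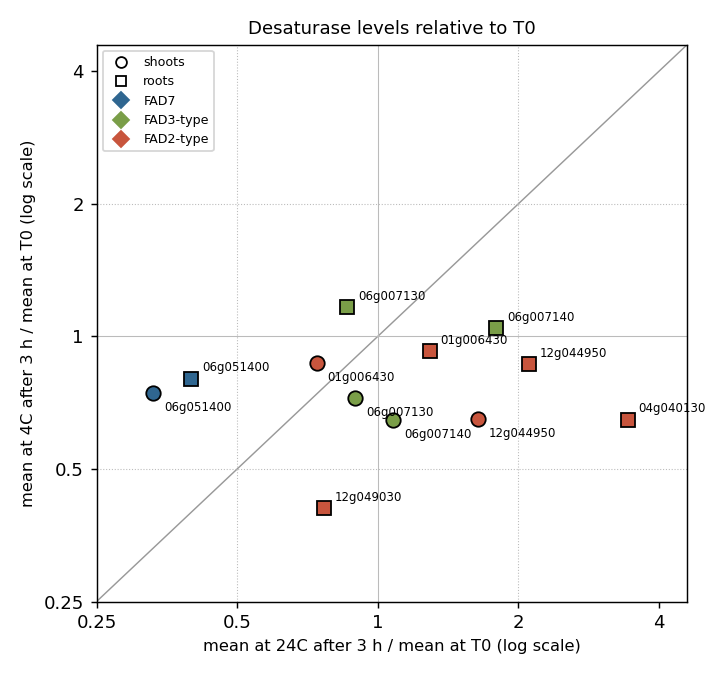
Mean after 3 h relative to the mean at T0 for each desaturase gene, at 24°C (x axis, log scale) and 4°C (y axis, log scale), in shoots (circles) and roots (squares), with dotted lines at the 2-fold cutoffs and identifiers without their Solyc prefix. FAD7 lies at 0.331 and 0.744 in shoots and at 0.399 and 0.802 in roots, and Solyc04g040130, shown for roots only because of its low shoot counts, at 3.43 and 0.647.

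The ratios to T0 show where the members lay. At 4°C the 3 h means ran from 0.408 (Solyc12g049030) to 1.17 (Solyc06g007130) of T0 in roots, and at 24°C from 0.399 (FAD7) to 3.43 (Solyc04g040130). In shoots the 5 members above the detection range of Solyc04g040130 ran from 0.647 (Solyc06g007140) to 0.871 (Solyc01g006430) at 4°C and from 0.331 (FAD7) to 1.64 (Solyc12g044950) at 24°C.

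Across libraries, log2 counts of the root FAD2-type genes Solyc12g044950 and Solyc04g040130 had a Pearson correlation of 0.98, and FAD7 and Solyc01g006430 one of -0.95 (9 root libraries). In shoots FAD7 and Solyc01g006430 had 0.65 over 18 libraries, opposite in sign to roots. FAD7 and Solyc12g044950 had -0.62 in shoots and -0.77 in roots. The libraries of a group share their treatment and time, so these values describe the group means as much as the libraries. By the same measure, among features with a mean of at least 100, the genes most like FAD7 were Solyc05g045670 (GPT2 by its Arabidopsis match, a plastid glucose 6-phosphate transporter) at 0.988 and Solyc06g068970 at 0.987 in shoots. In roots they were Solyc01g099290 and Solyc02g092910 at 0.99 and 0.989. Those most like Solyc12g044950 were Solyc02g087000 (0.944) and Solyc12g056930 (0.927) in shoots, and Solyc09g091950, annotated as an ethylene-responsive transcription factor (0.998), and Solyc05g009290 (0.995) in roots.

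Of the other lipid genes, 16 were listed by the names of their Arabidopsis matches, and since they were taken from a list of cold-responsive genes of another experiment, they are no neutral sample. In shoots after 3 h, 4 of the 14 tested were higher and 4 lower in 4°C, beside 9.63% and 29.9% of all genes. In roots 8 of 12 were higher and 1 lower, beside 18.0% and 28.0%. After 30 min in shoots limma called 0 higher and 1 lower, beside 2.85% and 3.22%. Oxylipin genes, which act on fatty acids released from membranes, made up 3 of the higher and 1 of the lower genes in shoots (5 tested) and 4 of the higher genes in roots (4 tested). Phospholipase genes gave 0 higher and 2 lower in shoots and 1 higher and 1 lower in roots, of 4 tested in each. Of the 2 diacylglycerol kinase genes tested, 1 was higher in shoots and 2 in roots, and of the surface lipid genes 1 of 3 was lower in shoots and 1 of 2 higher in roots.

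LOX3 (Solyc03g122340), a lipoxygenase that starts jasmonate synthesis, was at 328, 340 and 442 in 24°C and at 16934, 13771 and 5917 in 4°C in roots after 3 h, with T0 from 15699 to 18107. The chilled and ambient groups were far apart (log2 difference 4.92, adjusted p = 2.09e-06), and the ambient libraries lay below all 3 at T0. LOX5 (Solyc09g075860), another lipoxygenase, was lower in chilled than in ambient shoots at 30 min (-0.57, adjusted p = 0.000129) and at 3 h (-1.04, adjusted p = 1.1e-08) but higher in chilled roots (0.55, adjusted p = 0.00166). At 3 h shoot LOX5 was above T0 at both temperatures, by 1.45 in 24°C (limma adjusted p = 1.39e-11) and by 0.41 in 4°C (adjusted p = 0.000215). In roots it fell from T0 by 0.63 in 24°C (adjusted p = 0.000815), and the 4°C value of -0.09 did not pass (adjusted p = 0.63). The diacylglycerol kinase gene DGK5 (Solyc07g054830), of a family that makes phosphatidic acid, was higher in 4°C than in 24°C after 3 h, by 1.09 in shoots (adjusted p = 6.02e-06) and by 2.50 on the same log2 scale in roots (adjusted p = 5.19e-07). Against T0, DGK5 fell at 24°C by 1.03 in shoots (limma adjusted p = 1.94e-06) and by 2.43 in roots (adjusted p = 7.54e-07). Its 4°C values against T0, 0.06 in shoots and 0.07 in roots, did not pass (adjusted p = 0.747 and 0.762). CER3 (Solyc03g117800), of wax synthesis, was lower in chilled than in ambient shoots (-0.90, adjusted p = 0.000177) and higher in chilled roots (2.11, adjusted p = 0.000976). Shoot CER3 rose from T0 by 1.04 in 24°C (limma adjusted p = 7.93e-06), and the 4°C value of 0.14 did not pass (adjusted p = 0.479). In roots neither value against T0 passed (-0.93 in 24°C and 1.18 in 4°C, adjusted p = 0.0584 and 0.0666). The shoot T0 batches differed for DGK5 (0.54, adjusted p = 0.00654) and CER3 (-0.75, adjusted p = 0.00162), batch 2 against batch 1.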

How the data were processed

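The deposited tables hold signal values: the authors mapped reads with BBMap version 37.93 to the tomato genome and both organellar genomes, took gene counts from featureCounts and applied edgeR's TMM normalization. For the latter tools the version is not given in the sources used here. The values are not whole and library totals are equal, so depth is not known from them and a count test could not be run. The study reports a range of read depths over its sequencing batches, which was not used here. Each organ was fitted apart by limma (version 3.58.1, R version 4.3.3) on log2(value + 1), with variance moderation following the mean. Shoots had 6 groups over 18 libraries (T0 of each batch apart) and roots 3 groups over 9. Features needed 10 or more in 3 or more libraries to be tested, and a Benjamini-Hochberg adjusted p under 0.01 was a call. Fold changes are on the log2(value + 1) scale and understate those of low genes. Comparisons with T0 in shoots used the mean of both batches.

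Groups came from the sample labels, the pool size from the methods of the study, the batches from its text and sequencing summary, and 0 columns of values were left unused. The labels name 6 shoot T0 libraries, as do the methods of the study, while the deposited protocol speaks of 3 T0 samples. Deviations of T0 replicates 1 and 4, 2 and 5, and 3 and 6 correlated at 0.267, 0.216 and 0.467 (other pairs -0.341 to 0.103), so whether the 6 are independent was not settled, and averaging them in pairs was an alternative. The fit was tested on simulated data. There, 50 genes were changed at each fold size, and 20335 of 20535 shoot genes and 20480 of 20680 root genes were left unchanged. For 4°C against 24°C at 3 h, 46% of shoot genes with a 2-fold change and 84% of those with a 4-fold change were called, and in roots 52% and 92%. In the data 39.5% and 46.0% of genes were called, which changes the adjusted p, so these percentages are not the power of the comparisons reported. Members, lists and rules were chosen with earlier results of these data known. The text names all 7 members and the 2 genes most like FAD7 and Solyc12g044950 in each organ. Of the fixed list of 16 other lipid genes, the Results name AOS, LOX3, LOX5, DGK5 and CER3, and the rest entered the counts only. Among the rest, OPR2 (Solyc09g098320) differed between temperatures at 3 h by 7.23 in shoots, from a 24°C mean of 0, and by 6.10 in roots (log2). KCS1 (Solyc10g009240) passed in no comparison between temperatures. FAD2, FAD3 and FAD7 types are those of the list of members. Alternatives covered the pseudocount, filter, scaling, moderation, libraries in the fit, threshold, replicate block, T0 libraries and leaving out each library. Leaving out root T0 replicate 3 or shoot T0 replicates 3 and 6 from comparisons between temperatures, and averaging T0 pairs, were chosen after seeing the data. Sequences and gene lengths were not analysed here.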

Additional observations from a re-analysis of the deposited data

Results flagged for a closer look

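The temperature difference in shoots changed between 30 min and 3 h for 2 desaturases in opposite directions, by a test of the change itself (limma, all shoot libraries in 1 fit). FAD7 (Solyc06g051400) moved by 1.08 on the log2 scale (adjusted p = 1.04e-08), from a difference of 0.09 to 1.17, with all 3 chilled libraries above all 3 ambient ones at each time. Solyc12g044950 moved by -1.08 (adjusted p = 0.00303), from -0.27 to -1.35, with all 3 chilled libraries below the ambient ones at each time. The 30 min and 3 h libraries were sequenced in different batches, and batch and time cannot be told apart in either value.

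The FAD2-type gene Solyc01g006430 was higher in 4°C than in 24°C in every shoot library after 3 h (log2 difference 0.23, adjusted p = 0.00655) and lower in every root library (-0.48, adjusted p = 0.00459). Both calls were narrow, being lost under 6 of 18 alternatives in shoots and 6 of 16 in roots. The gene was flagged because its groups separated in opposite directions, so that separation is no further support. The difference between the organs was not tested, since their tables were normalized apart.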

How the results depend on the processing

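Of 69 differences of single desaturase genes, 19 passed the threshold and 11 of these passed under every alternative run. Of the 50 that did not pass, 35 did so under none, and no called value changed sign. At an adjusted p under 0.05 the members called were 3 in shoots at 30 min in 24°C against T0, 5 at 3 h in 4°C against T0 and 1 between T0 batches, and in roots 5 between temperatures, 5 in 24°C and 1 in 4°C against T0. Rescaling over nuclear genes gave 0 at 30 min in 4°C against T0 and 3 between T0 batches. Using only the libraries compared gave 0 for the former and 5 in roots between temperatures. With T0 as 1 group, 2 were called between temperatures at 3 h in shoots and 0 at 30 min against T0 at either temperature. With T0 of the same batch alone, 1 was called at 3 h in 4°C. Averaging T0 in pairs, or leaving out shoot T0 replicates 3 and 6, gave 0 at 30 min in 24°C against T0. Leaving out single libraries gave 2 to 3 members between temperatures at 3 h in shoots, 2 to 5 in roots, 0 to 1 for each 30 min comparison with T0, 2 to 3 for 4°C against T0 and 1 to 3 for the change between times in shoots, and in roots 2 to 5 in 24°C and 0 to 1 in 4°C against T0. The cause of these changes was not tested, apart from root T0 replicate 3, whose spread entered the shared estimate. These member counts are given without the share of all genes called in the same fit, so they are no result about the list.

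Counts over all genes also moved. With T0 as 1 group, shoot calls fell from 1246 to 713 between temperatures at 30 min, from 3305 to 1332 and from 2370 to 781 against T0 at 30 min, from 5016 to 3065 in 4°C at 3 h and from 2410 to 1160 for the change between times. T0 of the same batch alone gave 1743, 1457, 5263 (from 8260) and 2888. At an adjusted p under 0.05 the counts were 2437, 5674, 4355, 4686 for the change between times, 7444 (from 4827) between T0 batches and 2911 (from 991) in roots in 4°C against T0. With only the libraries compared they were 807, 1102 and, in roots in 4°C against T0, 449. Averaging T0 in pairs gave 1430 at 30 min in 4°C. Leaving out single libraries moved the root count in 4°C against T0 from 991 to 426 or 364 (without 4°C replicate 1 or 2) and 505, 581 or 1807 (without T0 replicate 1, 2 or 3). It moved the shoot count between temperatures at 30 min to 825 when 24°C replicate 3 was dropped and 795 when 4°C replicate 1 was, and those at 30 min against T0 to 2181 or 2136 in 24°C (without its replicate 1 or 2) and 1530 in 4°C (without its replicate 1).

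The replicate numbers do not pair the samples: 0 of 9 pairs of groups had every same-number correlation over 0.1 (range -0.12 to 0.445), and in 0 of them every sample correlated best with its own number. With the replicate number as a block, members called at 30 min in 4°C against T0 were 0. Shoot calls against T0 over all genes were 5859 (30 min 24°C), 4795 (30 min 4°C) and 3131 (3 h 4°C). Root calls in 4°C against T0 were 606. In shoots this fit also left out the T0 libraries of the 30 min batch. The 30 min shoots were thus compared with T0 of the 3 h batch alone. In the main fit the T0 batches differed for 23.5% of all genes. These shoot values therefore mix the block with the choice of T0 libraries, and the effect of the block alone was not tested.

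Normalized counts do not carry the depth, and the depths that the study reports were not used, so no counting error was given. Differences in the lowest members (Solyc12g049030, and Solyc04g040130 in shoots) are limited by a spread whose source is unknown.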
